A study of Homo sapiens with 8 samples.

Results

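The genes described here are 42 cell-surface receptors of human cells, chosen by name as receptor tyrosine kinases outside the ERBB and VEGF receptor groups. A row was taken for each gene symbol in the array annotation. Of the 42 genes, 41 were measured, each by 1 transcript cluster (a group of probes that reports 1 gene), among 17709 clusters with a gene symbol; EPHB2 was not analysed here. The list holds a pair of genes outside its own name. CSF3R encodes a cytokine receptor with no kinase of its own, and FLT4 encodes a VEGF receptor of lymphatic vessels.

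The samples are xenograft tumours of SK-OV-3, an established line of human ovarian carcinoma, in nude mice, and their RNA was read on Affymetrix arrays. In 4 tumours the cells carried the pIND_BORA vector for overexpression of BORA, which helps Aurora A to switch on PLK1 before mitosis. In the other 4 tumours the cells carried the same kind of vector empty (pIND_EV, here EV). All 8 tumours therefore share the line, the vector type and the host strain, which lacks a thymus and so most T cells but keeps other blood and stromal cells. Whether each tumour grew in its own animal, and whether the transfected cells were 1 pool or clone, is not in the labels. The p-values therefore rest on the spread among the 4 samples of a group, and part or all of it may be technical. The probes are human, and how far they read RNA of the mouse host was not tested.

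Receptor tyrosine kinases span the cell membrane. A ligand outside the cell brings receptor chains together, the kinase domains phosphorylate each other, and adaptor proteins bind the phosphorylated tyrosines and start the RAS-ERK and PI3K-AKT pathways. In ovarian carcinoma MET and AXL have been studied for their part in invasion and spread, and EPHA2 and ROR1 as surface antigens. Transcript levels say nothing of how much receptor protein is present or active.

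The BORA transcript was at 12.55 to 13.00 on the log2 scale in BORA tumours and at 6.15 to 7.32 in EV tumours, and thus higher in each BORA tumour than in any EV tumour. The 95th percentile of the 612 negative control rows lay between 7.62 and 8.13 in BORA arrays and between 7.82 and 8.24 in EV arrays. Of the measured markers of ovarian carcinoma cells, PAX8, EPCAM, KRT8 and KRT18 exceeded it in all 8 arrays, and MUC16 and WT1 in none. The array of EV replicate 1 stood apart. In it 588 clusters lay more than 1 log2 unit above all other arrays and 520 more than 1 below, against at most 42 and 49 in any other array. Each comparison is therefore given over 8 arrays and over the 7 arrays without EV replicate 1. The number of arrays limits the precision.

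A receptor gene was called above background where its value exceeded the 95th percentile of the negative controls of the same array in every array. That held for 10 of the 41 receptor genes, MET, MST1R, AXL, IGF1R, FGFR4, EPHA2, DDR1, ROR1, RYK and PTK7, and for 32.4% of all clusters. EPHB4 exceeded the percentile in 2 BORA arrays and 2 EV arrays. The other 30 receptor genes were below it in all 8 arrays, as were 52.1% of all clusters. Against the stricter 99th percentile only RYK and PTK7 were above in all 8 arrays, as were 11.6% of all clusters. Another 5 genes, MET, MST1R, AXL, DDR1 and ROR1, were above that percentile in all 4 BORA arrays and in 2 or 3 EV arrays. The share of all clusters with such a pattern was not computed, so this count is not a result about receptor genes. The percentile itself differed, from 9.87 to 10.22 in BORA arrays and from 10.03 to 10.77 in EV arrays, and was highest in EV replicate 1. MET, AXL and ROR1 missed it only in EV replicate 1. DDR1 missed it only in EV replicate 4, narrowly, at 10.479 against 10.485. Signals of different clusters depend on their probes, so levels are compared only within a gene.

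The promoters of 4 receptor genes are printed as examples. MET and MST1R are related receptors whose groups did not overlap over 7 arrays and lay in opposite directions. AXL and ROS1 moved apart from the other tumours in EV replicate 1. Whether the promoters bear on these values was not tested. Each sequence is the 250 bases upstream of the first start listed for the gene in RefSeq (build GRCh38.p14), read 5′ to 3′ on the strand of the gene. Capitals mark CG dinucleotides. They lie at chr7:116671946-116672195 (+ strand) for MET, chr3:49903874-49904123 (- strand) for MST1R, chr19:41218973-41219222 (+ strand) for AXL and chr6:117425943-117426192 (- strand) for ROS1.
MET: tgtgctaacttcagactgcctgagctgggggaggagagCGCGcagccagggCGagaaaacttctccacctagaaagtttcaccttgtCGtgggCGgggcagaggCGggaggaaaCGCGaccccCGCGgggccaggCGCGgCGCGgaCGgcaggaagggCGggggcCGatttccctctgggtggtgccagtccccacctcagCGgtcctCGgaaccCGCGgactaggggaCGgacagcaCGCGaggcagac
MST1R: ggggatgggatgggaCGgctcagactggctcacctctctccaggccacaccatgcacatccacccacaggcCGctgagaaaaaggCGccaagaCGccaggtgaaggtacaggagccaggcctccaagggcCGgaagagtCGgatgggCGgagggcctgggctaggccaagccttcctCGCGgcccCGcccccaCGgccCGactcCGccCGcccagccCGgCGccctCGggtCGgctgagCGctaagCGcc
AXL: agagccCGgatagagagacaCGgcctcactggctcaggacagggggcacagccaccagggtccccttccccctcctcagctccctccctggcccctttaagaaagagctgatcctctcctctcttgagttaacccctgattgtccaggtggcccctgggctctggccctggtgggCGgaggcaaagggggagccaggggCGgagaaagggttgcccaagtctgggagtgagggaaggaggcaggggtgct
ROS1: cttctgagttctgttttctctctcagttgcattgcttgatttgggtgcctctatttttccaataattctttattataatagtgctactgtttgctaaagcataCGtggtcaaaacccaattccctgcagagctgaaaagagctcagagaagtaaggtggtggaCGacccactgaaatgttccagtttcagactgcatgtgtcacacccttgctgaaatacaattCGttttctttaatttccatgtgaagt

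Such promoters were listed for 38 of the 41 genes; FGFR1, FLT4 and INSRR had no entry. The promoter of MET held 24 CG dinucleotides, that of MST1R 20, that of AXL 4 and that of ROS1 3. Over the 10 receptor genes above background the median was 24, with a range of 4 to 48. Over the 28 other receptor genes it was 18, with a range of 0 to 42, and over 14250 genes of the array it was 18. The GC box GGGCGG, searched on both strands, was found in 8 of the 10 promoters and in 20 of the 28 (71.4%), against 57% of all. A match describes the letters in this window only. CG-rich and CG-poor promoters thus occurred both above and below background. Among the genes above background, AXL and DDR1 had the fewest CG dinucleotides, 4 and 6, and IGF1R the most, 48.

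None of the 41 receptor genes passed the test between BORA and EV tumours. With limma and Benjamini-Hochberg adjustment over all clusters at a threshold of 0.05, 0 were higher and 0 lower over 8 arrays, where 0.102% of all clusters were higher and 0.00% lower. Over 7 arrays the counts were again 0 and 0, against 0.435% and 0.0791% of all clusters. The smallest adjusted p of a receptor gene was 0.278 over 8 arrays and 0.196 over 7. At an unadjusted p under 0.05, 2 receptor genes were higher and 4 lower over 8 arrays, beside 7.37% and 7.17% of all clusters. These 6 genes are 14.6% of the receptor genes, beside 14.5% of all clusters. Over 7 arrays 1 was higher and 5 were lower, beside 7.70% and 7.62%, and together they were again 14.6%, beside 15.3%. Differences of more than 1 log2 unit were found in 0 receptor genes in either comparison, beside 2.70% of all clusters over 8 arrays and 1.61% over 7. The 95% intervals of the log2 difference, not adjusted for the number of genes, reached past 1 or -1 for 10 receptor genes over 8 arrays. Over 7 arrays they did so for 2, MET and FGFR4. For the other 39 genes a difference in array signal beyond 2-fold lay outside the interval. Of the 41 genes, 30 had signals below the controls in all 8 arrays. Their intervals describe signal at background level and set no limit on the difference in transcript.

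**Figure D1:**
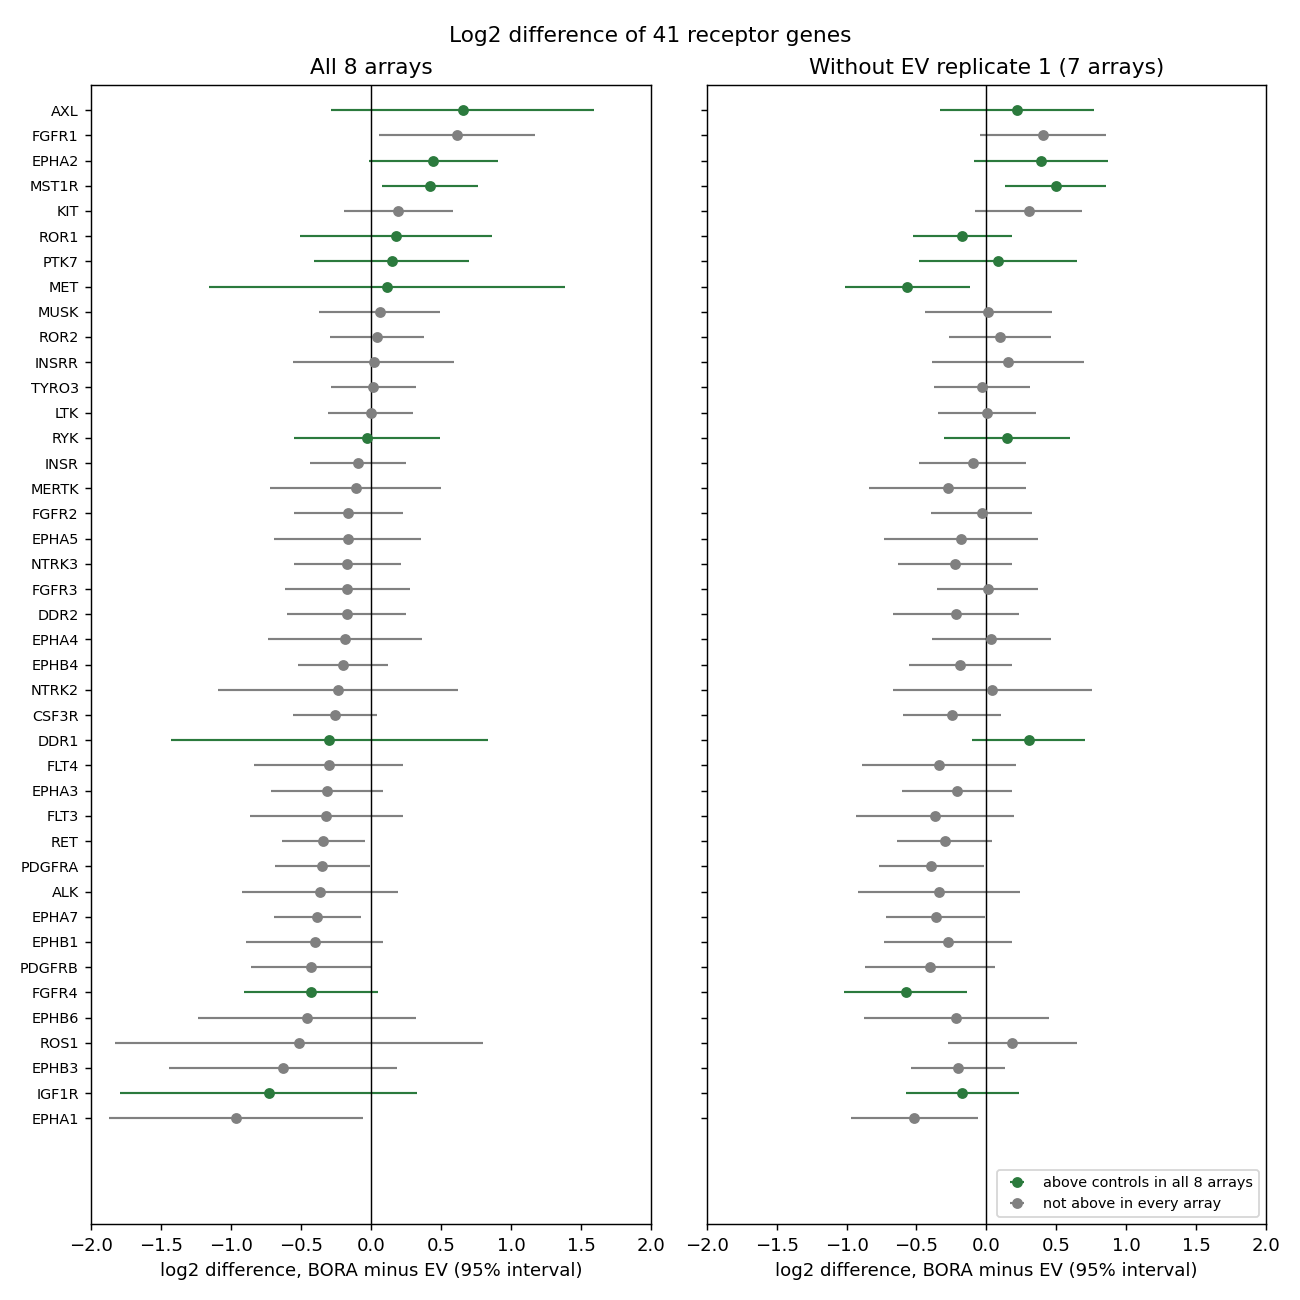
Log2 difference between BORA and EV tumours (x axis, BORA minus EV) for each of the 41 measured receptor genes (y axis), over all 8 arrays on the left and over 7 arrays on the right. Points are limma estimates with unadjusted 95% intervals, green for the 10 genes above the negative controls in all arrays; the intervals of MET, DDR1, IGF1R and ROS1 are much narrower on the right.

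MET, the receptor of hepatocyte growth factor, was at 12.47, 13.07, 12.87 and 12.95 in BORA tumours. In EV tumours it was at 10.69 in replicate 1 and at 13.43, 13.10 and 13.69 in replicates 2 to 4. EV replicate 1 lay below every BORA tumour and the other 3 EV tumours above every BORA tumour. The log2 difference was 0.11 over 8 arrays (SE 0.57, limma adjusted p = 0.942) and turned to -0.56 over 7 (SE 0.20, 95% interval -1.01 to -0.12, limma adjusted p = 0.229). MST1R, the receptor of macrophage-stimulating protein and the closest relative of MET, was at 10.87, 10.61, 10.81 and 10.78 in BORA tumours and at 10.58, 10.33, 10.44 and 10.06 in EV tumours. The groups did not overlap, although the lowest BORA tumour and EV replicate 1 were nearly level. The log2 difference of MST1R was 0.42 over 8 arrays (95% interval 0.07 to 0.76, limma adjusted p = 0.282) and 0.50 over 7 (95% interval 0.13 to 0.86, limma adjusted p = 0.196). That was the smallest p of a receptor gene over 7 arrays.

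Among the TAM receptors, which bind GAS6 and protein S, only AXL was above background. AXL was at 11.23, 11.25, 11.47 and 11.75 in BORA tumours and at 9.46, 11.19, 11.77 and 10.65 in EV tumours. EV replicate 1 was the lowest, EV replicate 3 the highest of all 8, and the groups overlapped. AXL differed by 0.65 log2 units over 8 arrays (95% interval -0.28 to 1.59, limma adjusted p = 0.496) and 0.22 over 7 (95% interval -0.33 to 0.77, limma adjusted p = 0.725). MERTK, the TAM receptor of phagocytes, and TYRO3 stayed below the controls, with log2 differences of -0.11 and 0.02 over 8 arrays.

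IGF1R, the receptor of insulin-like growth factors, was at 9.05, 9.10, 9.37 and 9.13 in BORA tumours and at 11.58, 9.64, 9.33 and 9.04 in EV tumours. EV replicate 1 lay 1.94 log2 units above the next array, and the other tumours overlapped. IGF1R differed by -0.73 log2 units over 8 arrays (95% interval -1.79 to 0.33) and -0.17 over 7 (95% interval -0.58 to 0.23), with limma adjusted p of 0.500 and 0.697. INSR, the insulin receptor, and INSRR, its relative that senses alkaline pH, were below the controls.

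FGFR4, a receptor of fibroblast growth factors, was at 10.31, 9.51, 9.91 and 9.96 in BORA tumours and at 9.92, 10.38, 10.62 and 10.51 in EV tumours. EV replicate 1 lay inside the BORA range, and EV replicates 2 to 4 lay above every BORA tumour. FGFR4 differed by -0.43 log2 units over 8 arrays (SE 0.21, limma adjusted p = 0.386) and -0.58 over 7 (95% interval -1.02 to -0.14, limma adjusted p = 0.214). FGFR1, below the controls, was at 7.31, 7.37, 7.10 and 6.70 in BORA tumours and at 5.88, 6.99, 6.53 and 6.63 in EV tumours. It thus had the opposite sign, 0.61 over 8 arrays (95% interval 0.05 to 1.17, limma adjusted p = 0.314) and 0.40 over 7 (95% interval -0.05 to 0.85). BORA replicate 4 lay within the EV range. FGFR2 and FGFR3 were below the controls, at -0.16 and -0.17 over 8 arrays and at -0.03 and 0.01 over 7.

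Ephrin receptors bind ligands on neighbouring cells and act in cell sorting and contact repulsion. EPHA2 was the 1 ephrin receptor of 10 measured that was above background in every array. It was at 10.24, 10.11, 10.59 and 10.14 in BORA tumours and at 9.66, 10.11, 10.13 and 9.40 in EV tumours. EV replicates 2 and 3 lay just above the lowest BORA tumour, so the groups overlapped. EPHA2 differed by 0.45 log2 units over 8 arrays (95% interval -0.01 to 0.90, limma adjusted p = 0.356) and 0.39 over 7 (limma adjusted p = 0.427). The other 9 ephrin receptors had values below 0 over 8 arrays, and 8 of the 10 did so over 7. These counts were the same after quantile normalization.

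EPHA7, a receptor of A-type ephrins, had the smallest p of the receptor genes over 8 arrays. It was at 6.12, 6.30, 5.92 and 6.22 in BORA tumours and at 6.60, 6.59, 6.51 and 6.42 in EV tumours, all below the controls, and the groups did not overlap. The log2 difference was -0.39 over 8 arrays (SE 0.14, limma adjusted p = 0.278) and -0.36 over 7 (limma adjusted p = 0.318). EPHA1, a receptor typical of epithelia, was at 4.45, 4.86, 4.27 and 5.05 in BORA tumours and at 6.98, 5.19, 5.26 and 5.06 in EV tumours. The highest BORA tumour and the lowest EV tumour were almost equal, and EV replicate 1 stood 1.72 log2 units above all others. EPHA1 differed by -0.97 log2 units over 8 arrays (SE 0.40, limma adjusted p = 0.324) and -0.52 over 7 (SE 0.21, limma adjusted p = 0.268), all on signals below the controls.

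DDR1, a receptor that collagen activates, was at 10.54, 10.73, 10.99 and 11.07 in BORA tumours and at 12.94, 10.73, 10.38 and 10.48 in EV tumours. EV replicate 1 was the highest by 1.87 log2 units, and the other tumours overlapped. Its log2 difference changed sign, with -0.30 over 8 arrays (95% interval -1.43 to 0.83, limma adjusted p = 0.805) and 0.30 over 7 (95% interval -0.10 to 0.71, limma adjusted p = 0.467). DDR2, the collagen receptor typical of mesenchymal cells, was below the controls.

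ROR1, RYK and PTK7 are receptors tied to Wnt signalling. ROR1 was at 11.08, 10.85, 10.87 and 11.02 in BORA tumours and at 9.74, 10.96, 11.21 and 11.20 in EV tumours. EV replicate 1 lay 1.11 log2 units below the next array, and the other tumours overlapped. Its log2 difference was 0.18 over 8 arrays and -0.17 over 7 (limma adjusted p = 0.813 and 0.655).

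RYK was at 13.59, 14.07, 13.39 and 13.47 in BORA tumours and at 14.19, 13.70, 13.52 and 13.22 in EV tumours. PTK7 was at 12.02, 11.99, 12.62 and 12.82 in BORA tumours and at 12.02, 12.64, 12.33 and 11.86 in EV tumours. The groups overlapped for both genes. The log2 difference of RYK was -0.03 over 8 arrays (95% interval -0.55 to 0.49) and 0.15 over 7, and that of PTK7 was 0.15 (95% interval -0.41 to 0.70) and 0.08. ROR2, which binds WNT5A, and MUSK, the agrin-dependent receptor of the neuromuscular junction, were below the controls, with log2 differences of 0.04 and 0.06 over 8 arrays.

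**Figure D2:**
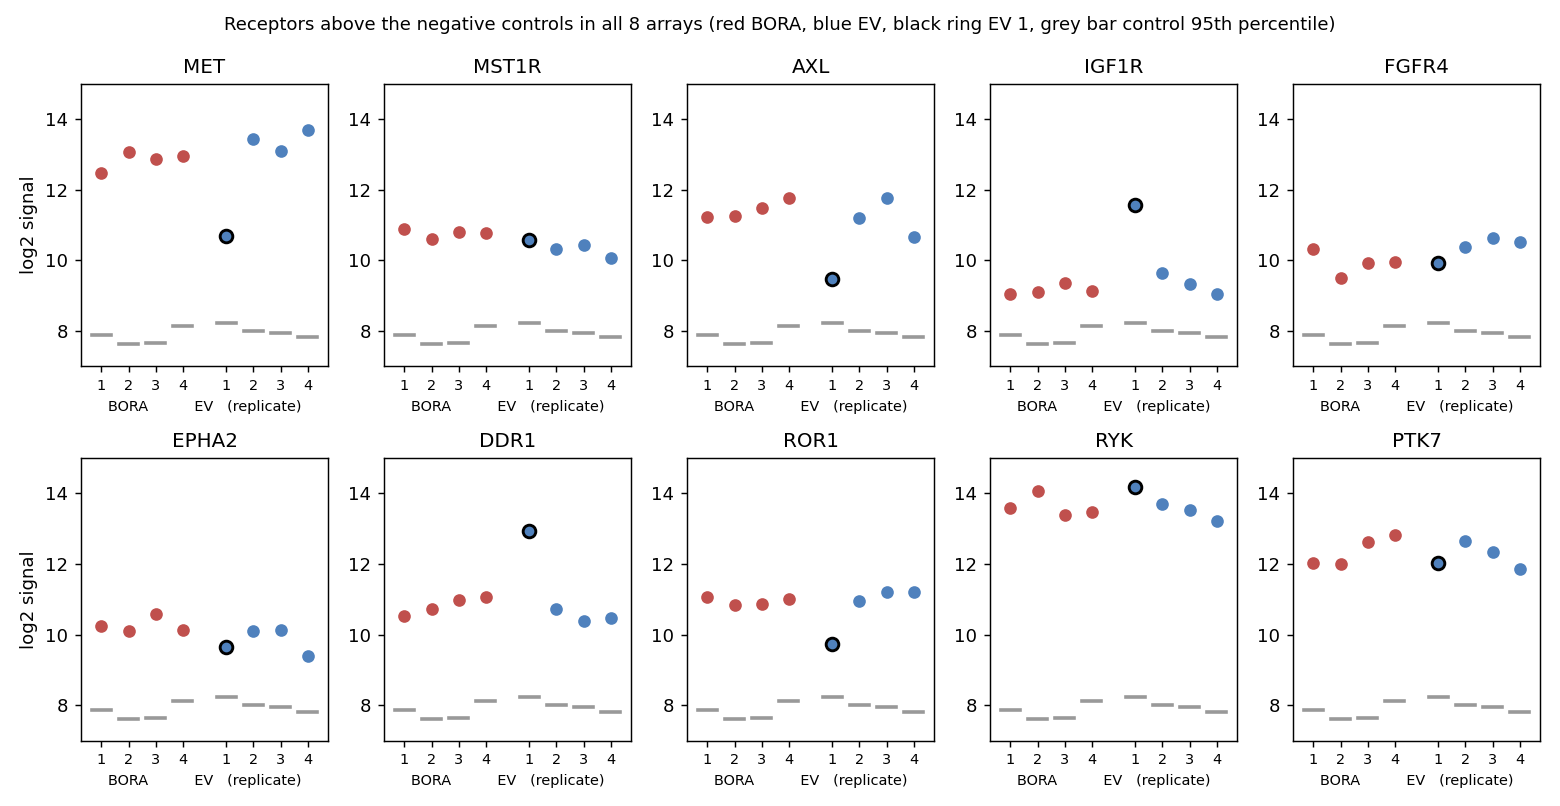
Log2 signal (y axis) of the 10 receptor genes above the negative controls in every array, by tumour (x axis, replicates 1 to 4 of BORA on the left and of EV on the right). Red points are BORA tumours, blue points EV tumours, the black ring marks EV replicate 1 and grey bars mark the 95th percentile of the negative controls of each array; MET, AXL and ROR1 are low and IGF1R and DDR1 high in EV replicate 1.

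PDGFRA and RET, below the controls, also had values below 0. PDGFRA, a platelet-derived growth factor receptor of mesenchymal cells, was at 4.98, 4.91, 5.12 and 5.002 in BORA tumours and at 5.22, 5.29, 5.68 and 5.22 in EV tumours. RET, the receptor of GDNF-family ligands, was at 6.79, 6.94, 6.91 and 6.77 in BORA tumours and at 7.33, 7.19, 7.24 and 7.03 in EV tumours. Neither gene's groups overlapped. The log2 differences of PDGFRA were -0.35 over 8 arrays and -0.39 over 7 (limma adjusted p = 0.335 and 0.307). Those of RET were -0.34 and -0.30 (limma adjusted p = 0.298 and 0.391). In all, 1 receptor gene was higher and 6 were lower without overlap over 8 arrays, against 4.45% and 4.91% of all clusters (9.36% in either direction). These were MST1R on the one side and PDGFRA, CSF3R, EPHA1, EPHA7, EPHB3 and RET on the other. All 6 lower genes were below the controls in all 8 arrays. In that class of clusters 69.1% had a log2 difference below 0, and 54% after quantile normalization. Over 7 arrays 2 were higher and 8 lower, against 6.66% and 7.68% of all clusters (14.3% in either direction), with KIT higher and MET and FGFR4 lower as additions.

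The remaining 26 receptor genes had signals between 3.37 and 8.23 and log2 differences between -0.63 and 0.20 over 8 arrays, 21 below and 5 above 0. Over 7 arrays these differences lay between -0.40 and 0.30. Their smallest adjusted p was 0.351 over 8 arrays and 0.397 over 7. They include KIT and FLT3, receptors of stem cell factor and FLT3 ligand on blood cell precursors, the neurotrophin receptors NTRK2 and NTRK3, and ALK, LTK and ROS1, kinases known from gene fusions in other tumours.

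Lower values prevailed among the dim genes of the whole array too. Of the 30 receptor genes below the controls in all 8 arrays, 24 had a log2 difference below 0 (median -0.21), as had 69.1% of the 9224 clusters of that class (median -0.12). After quantile normalization 23 of the 30 were below 0 (median -0.14), against 54% of the class (median -0.02). Over 7 arrays the counts were 20 of 30 in the deposited values and 19 after quantile normalization, beside 68.2% and 53.1% of the class. Of the 10 genes above the controls, 4 were below 0 over 8 arrays and over 7, and 5 after quantile normalization in either comparison. In all, 29 of 41 receptor genes were below 0 over 8 arrays and 25 over 7, beside 53.4% and 53.9% of all clusters. Over all 41 genes the median log2 difference was -0.17 over 8 arrays and -0.17 over 7, beside -0.03 and -0.03 over all clusters.

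EV replicate 1 departed from the other tumours in 8 receptor genes by more than 1 log2 unit. It was above all 7 other arrays by that margin in 5 of 41 genes, IGF1R, EPHA1, EPHB3, DDR1 and ROS1, against 3.32% of all clusters. It was below by that margin in 3 of 41, MET, AXL and ROR1, against 2.94% of all clusters. No other array had such a gap in any receptor gene. With no margin set, EV replicate 1 was the highest array in 16 receptor genes and the lowest in 4, against 20.6% and 22.2% of all clusters. Of these 16 genes, all but IGF1R, DDR1 and RYK were below the controls in every array. The 95th percentile of the controls was highest in EV replicate 1, at 8.24. Relative to the mean of EV replicates 2 to 4, DDR1 was 5.33-fold and IGF1R 4.73-fold higher in EV replicate 1. MET was there 6.55-fold, AXL 3.35-fold and ROR1 2.61-fold lower. EPHB3, an ephrin receptor of epithelial boundaries, was at 6.71 in EV replicate 1, against 5.01, 4.92 and 5.05 in EV replicates 2 to 4. ROS1 was at 6.41 there, against 3.86, 3.58 and 3.37. EPHA1, EPHB3 and ROS1 were below the controls in that array as well, so the sizes of their gaps are uncertain. EPHB3, ROS1 and the other genes of this paragraph were singled out after their values were seen.

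**Figure D3:**
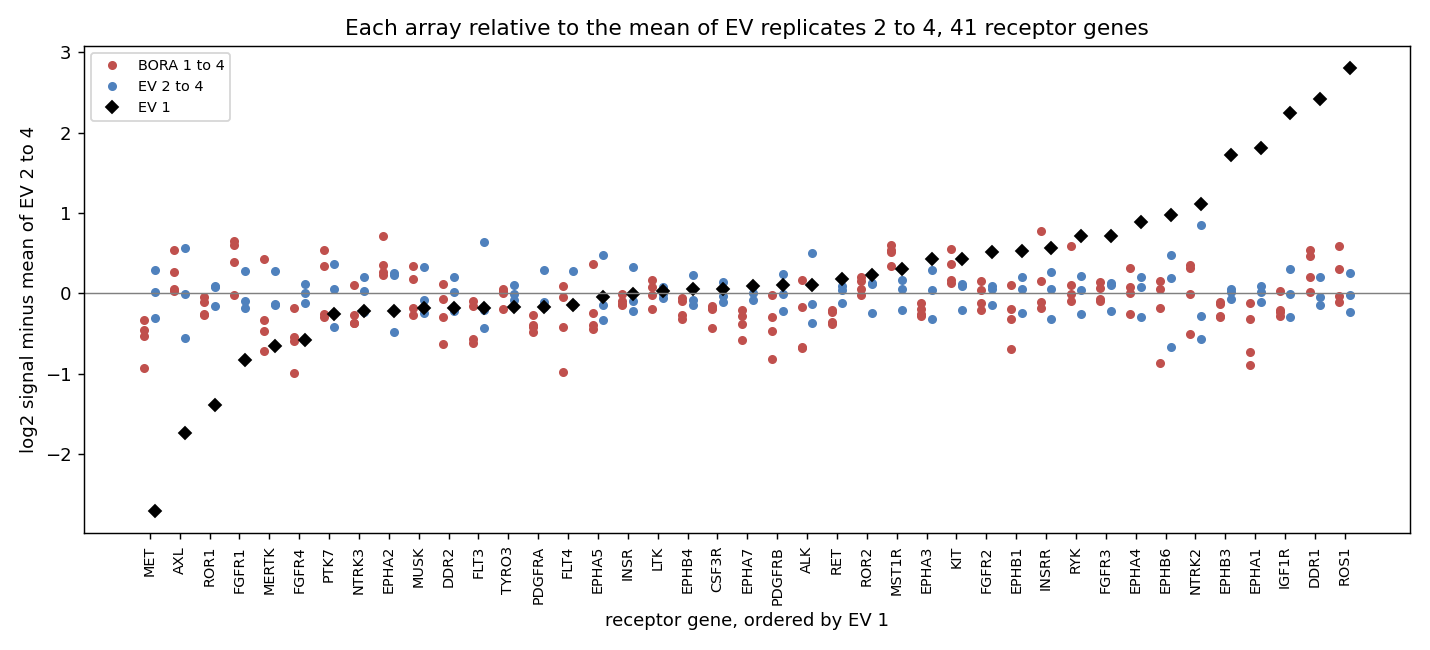
Log2 signal of each tumour minus the mean of EV replicates 2 to 4 (y axis) for the 41 receptor genes, ordered along the x axis by the position of EV replicate 1. Red points are BORA tumours, blue points EV replicates 2 to 4 and black diamonds EV replicate 1, which reaches from -2.71 at MET to 2.80 at ROS1.

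Markers of squamous epithelium also set EV replicate 1 apart. All 6 that were measured lay more than 1 log2 unit above the other arrays in EV replicate 1, and their mean signal there was 15.42, against 6.53 to 7.32 in EV replicates 2 to 4 and 6.29 to 7.08 in BORA tumours. The 6 ovarian carcinoma markers averaged 10.30 in EV replicate 1, 10.97 to 11.39 in EV replicates 2 to 4 and 11.06 to 11.20 in BORA tumours. Of the blood cell markers, PTPRC (CD45) was at 9.68 to 10.96 in BORA tumours, against 6.91 in EV replicate 1 and 12.19 to 12.94 in EV replicates 2 to 4. Over 7 arrays PTPRC fell by 2.07 on the log2 scale in BORA tumours (limma adjusted p = 0.0194), and over 8 it did not pass (adjusted p = 0.803). CD68, the 1 blood cell marker above the controls in all 8 arrays, had the opposite sign over 7. It differed by 0.35 over 8 arrays and 0.38 over 7 (limma adjusted p = 0.567 and 0.563). ITGAM, CD163, LYZ, CSF1R and TYROBP had differences below 0 in both comparisons, between -1.01 and -0.14 over 8 arrays, and did not pass. The 7 blood cell markers averaged 7.56 to 7.99 in BORA tumours, against 7.39 in EV replicate 1 and 8.27 to 8.64 in EV replicates 2 to 4. No endothelial marker of 8 was above the controls in all 8 arrays, and 6 were below them in all. The other pair, PECAM1 and CDH5, exceeded them in 3 and 2 BORA arrays and in 0 EV arrays, with log2 differences of 1.56 and 2.28 over 8 arrays that did not pass (limma adjusted p = 0.137 and 0.129). The 6 endothelial markers below the controls, VWF, KDR, TEK, TIE1, ESAM and CLDN5, had differences of the opposite sign over 8 arrays, between -0.49 and -0.06. All 8 averaged 5.75 to 6.01 in BORA tumours, against 5.48 in EV replicate 1 and 5.42 to 6.02 in EV replicates 2 to 4. Of 7 fibroblast and mural markers, 3 were above in all arrays and 3 below in all. In bulk tumours fewer cells of a type and less RNA per cell cannot be told apart, and the part of these markers in the receptor values was not tested.

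Of the ligands of these receptors, FGF5 rose and no other passed. FGF5, a secreted fibroblast growth factor, was at 5.42, 5.76, 5.95 and 5.65 in BORA tumours and at 4.56, 4.78, 4.52 and 4.46 in EV tumours, with no overlap. All of these signals lay below the controls. The log2 difference was 1.11 over 8 arrays (SE 0.16, limma adjusted p = 0.0474) and 1.11 over 7 (SE 0.18, limma adjusted p = 0.0294). The 8-array call was lost when any 1 array apart from EV replicate 1 was left out, and the 7-array call without BORA replicate 2, 3 or 4. Of 39 measured ligands 38 did not pass in either comparison, and the median log2 difference was -0.13 over 8 arrays.

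AGRN, which encodes agrin, the activator of MUSK, was at 11.82, 11.55, 11.54 and 11.89 in BORA tumours and at 11.01, 10.47, 11.37 and 10.13 in EV tumours. The groups did not overlap, and the log2 difference was 0.96 over 8 arrays (limma adjusted p = 0.191) and 1.04 over 7 (limma adjusted p = 0.109), while MUSK itself was below the controls. EFNB2, the ligand ephrin-B2, differed by -0.52 over 8 arrays and -0.39 over 7, also without overlap (limma adjusted p = 0.245 and 0.285). FGF10, below the controls, was at -0.53 and -0.65 (limma adjusted p = 0.230 and 0.106). EFNA3, the ligand ephrin-A3, was at 0.47 over 8 arrays and 0.72 over 7 (limma adjusted p = 0.431 and 0.119).

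Adaptor and proximal signalling genes did not pass, 0 of 28 in either comparison. SHC1, which links phosphorylated receptors to GRB2 and RAS, was at 11.75, 11.37, 11.98 and 11.52 in BORA tumours and at 10.89, 11.01, 10.42 and 10.92 in EV tumours. All BORA tumours lay above all EV tumours, and the log2 difference was 0.84 over 8 arrays (SE 0.19, limma adjusted p = 0.145) and 0.87 over 7 (limma adjusted p = 0.0985). GRB7, an adaptor whose gene lies beside ERBB2, differed by 1.06 and 0.82 with overlapping groups. PIK3R1, the regulatory subunit of PI3-kinase, differed by -0.57 and -0.68 without overlap, the SRC kinase by -0.48 and -0.44, and the adaptor SH2B1 by 0.37 and 0.47, given over 8 and then over 7 arrays.

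Genes of inhibitors, phosphatases and receptor processing gave 0 of 29 calls in either comparison. SOCS3, a feedback inhibitor of cytokine signalling, differed by 0.55 over 8 arrays and 0.47 over 7 without overlap (limma adjusted p = 0.222 and 0.244), on signals below the controls. IGFBP1, IGFBP4 and IGFBP5, binding proteins of the IGF1R ligands, differed by -0.49, -0.44 and 0.22 over 8 arrays and by -0.59, -0.58 and 0.72 over 7, all below the controls. FURIN, a protease that cleaves the MET and insulin receptor precursors, differed by 0.59 in both. PTPRF, a receptor phosphatase, differed by -0.67 over 8 arrays and -0.42 over 7.

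Genes that respond to ERK activity gave 0 of 15 calls in either comparison, with a median log2 difference of 0.69 over 8 arrays and 0.52 over 7. Of these genes 13 were above 0 over 8 arrays and 10 over 7, beside 46.6% and 46.1% of all clusters. After quantile normalization 11 were above 0 over 8 arrays and 10 over 7, with medians of 0.60 and 0.40, beside 48.1% and 47.7% of all clusters. Of the 12 that exceeded the controls in every array, 10 were above 0 over 8 arrays, beside 62.6% of all clusters of that class, and 8 after quantile normalization, beside 47.7%. Over 7 arrays 8 of the 12 were above 0, beside 61.4% of that class, and 8 after quantile normalization, beside 46.3%. SPRY1, a feedback inhibitor of receptor signalling, was at 13.95, 13.28, 13.76 and 13.17 in BORA tumours and at 9.80, 12.18, 12.64 and 12.78 in EV tumours. All BORA tumours lay above all EV tumours, with EV replicate 1 far below the rest. The log2 difference was 1.69 over 8 arrays (SE 0.58, limma adjusted p = 0.266) and 1.01 over 7 (SE 0.23, limma adjusted p = 0.0908). SPRY4 differed by 1.50 and 0.94, PHLDA1 by 0.70 and 0.76 and the phosphatase gene DUSP5 by 1.00 and 0.52, given over 8 and then over 7 arrays. The early response gene EGR1 differed by 0.80 over 8 arrays and 1.76 over 7 (limma adjusted p = 0.698 and 0.136), and EV replicate 1 held the highest EGR1 signal, 14.64.

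**Figure D4:**
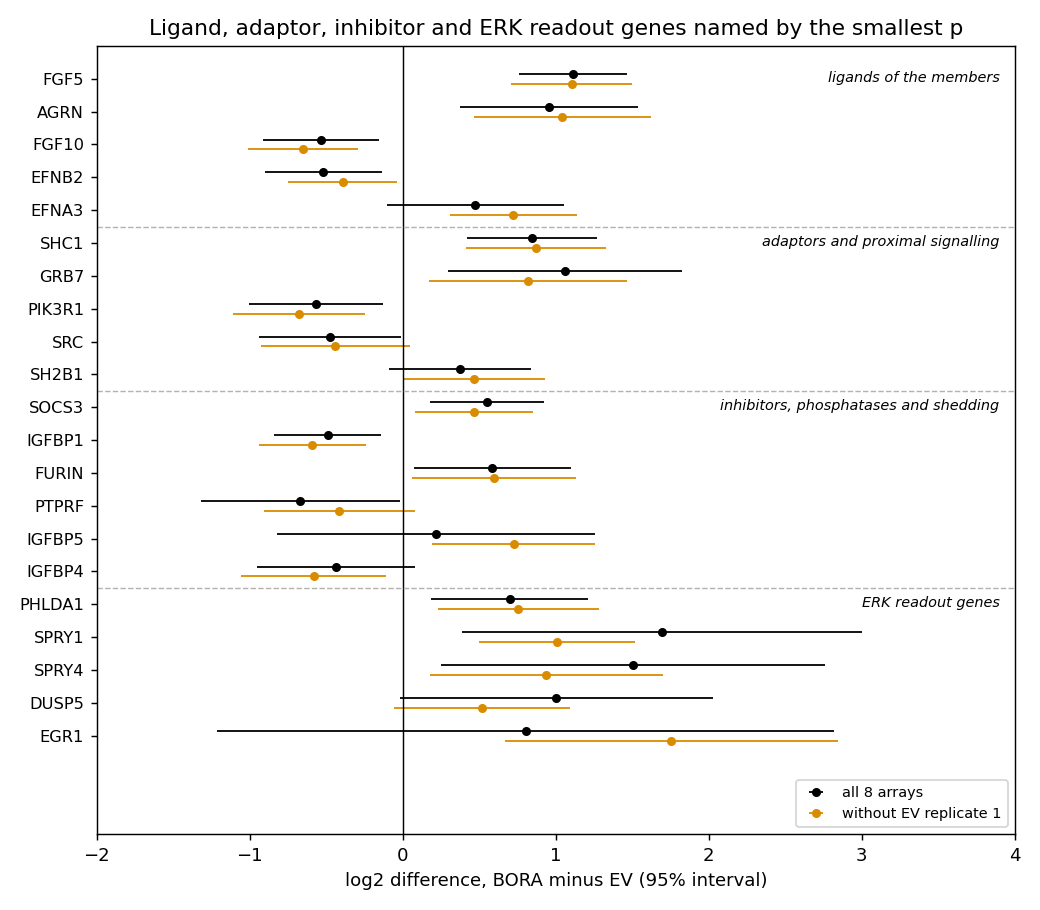
Log2 difference between BORA and EV tumours (x axis, BORA minus EV, with unadjusted 95% intervals) for the ligand, adaptor, inhibitor and ERK-responsive genes with the smallest p of each list (y axis). Black points are all 8 arrays and orange points the 7 arrays without EV replicate 1; FGF5 is the 1 gene past the adjusted threshold.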

How the data were processed

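RNA of 8 tumours was hybridised to 1 array each. The submitters' processing notes name Affymetrix Expression Console as the software with which the authors made the deposited values; the sources used here give neither its version nor the background correction, the normalization or the genome build. No label states the log base, and the range of the deposited values is that of log2 signals, as which they were read. The description names the Human Gene 1.0 ST design, but the identifiers are those of a different Affymetrix human array. Serial numbers in the titles run through the BORA tumours and then the EV tumours, so a processing order cannot be told apart from the groups; no batch is named.

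No further normalization or intensity filter was applied. Of 24351 rows, the 17709 clusters with 1 gene symbol were kept. All of these were tested with limma 3.58.1 in R 4.3.3 (lmFit, eBayes) for BORA minus EV without covariates. The fit was first checked on simulated data that held no outlying array. That check required recovery only of its largest changes. P-values were adjusted over all clusters (Benjamini-Hochberg). The brightest cluster of a symbol was used. The members, the lists of ligands, adaptors, inhibitors, ERK-responsive genes and cell markers, and the comparison without EV replicate 1 were chosen with earlier results of these data known. Receptor genes above the controls in every array of either group, and the 5 with the smallest p in either comparison, are given with every value. Of each pathway list, the 4 genes with the smallest p in either comparison are named. The alternatives were a replicate block, quantile normalization, median centring, an intensity trend, array weights, a filter on dim clusters, the mean of a symbol's clusters, other thresholds and leaving out each array.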

Additional observations from a re-analysis of the deposited data

Results flagged for a closer look

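Of 82 groups of 4 tumours (41 receptor genes in BORA and EV tumours), 7 held 1 tumour set far from its group. The nominal rate of the rule is about 1 in 20. The share of all clusters that it flags was not computed, so the count is not a result about receptor genes. Of the 7, 4 were in EV replicate 1, which stood apart over the whole array. In EV replicate 1 these were DDR1 (12.94, with the other EV tumours between 10.38 and 10.73), EPHA1 (6.98, others between 5.06 and 5.26), EPHB3 (6.71, others between 4.92 and 5.05) and ROS1 (6.41, others between 3.37 and 3.86). PDGFRA stood out in EV replicate 3 (5.68, others between 5.22 and 5.29) and FLT4 in EV replicate 2 (5.38, others between 4.95 and 4.96), both below the negative controls. CSF3R was low in BORA replicate 3 (3.71, others between 3.94 and 3.98), also below the controls.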

How the results depend on the processing

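No receptor gene passed an adjusted threshold of 0.05 under any alternative run, over 8 arrays or over 7, or of 0.1 in the deposited values. With an unadjusted threshold of 0.05, 2 were higher and 4 lower over 8 arrays, and 1 and 5 over 7. Replicate numbers showed no pairing of the tumours in these values. Deviations of same-numbered tumours from their group means correlated at -0.113, 0.0389, 0.0713 and -0.0188, and 1 of 4 BORA tumours matched its own number best. The EV mean included EV replicate 1, which stood apart, so these correlations cannot exclude a pairing. With the replicate block the count of ligands called was 0 over 8 arrays and 2 over 7, and no receptor gene was called. That count was 0 over 8 arrays with median centring and 0 in both comparisons among clusters above the controls, where FGF5 was not tested. Leaving out each array gave 0 to 1 over 8 arrays and 0 to 2 over 7. The median log2 difference of the receptor genes was 0.13 over 8 arrays and 0.11 over 7 when only clusters above the controls were kept, which leaves out the dim genes. With each array left out it lay between -0.24 and -0.14 over 8 arrays and between -0.16 and -0.097 over 7. With the 99th percentile of the controls, 2 receptor genes were above in every array of both groups, and 5 in every array of 1 group only, the BORA tumours. That percentile was at most 10.22 in BORA arrays and reached 10.77 in EV replicate 1. The share of all clusters above it in every array of 1 group only was not computed. Some differences changed sign. Over 8 arrays MET was at -0.0024 with quantile normalization and -0.31 with array weights, and with array weights DDR1 was at 0.070, ROR1 at -0.025, RYK at 0.047 and PTK7 at -0.0012. With each array left out of the 8, MET ranged from -0.56 to 0.44, DDR1 from -0.55 to 0.30, ROR1 from -0.17 to 0.32, RYK from -0.18 to 0.15 and PTK7 from -0.0062 to 0.29. Among these runs MET, DDR1 and ROR1 changed sign only where EV replicate 1 was left out. Over 7 arrays PTK7 was at -0.026 with quantile normalization and -0.031 with array weights. With each array left out of the 7, PTK7 ranged from -0.13 to 0.26 and AXL from -0.058 to 0.50. The cause was not tested. Signals of 30 receptor genes lay below the controls, which limits what their differences show.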
